A study of Mus musculus with 12 samples.

Results

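The genes described here are the mouse receptors for glutamate and gamma-aminobutyric acid (GABA), followed in hippocampal neurons and glia. Members were taken by gene symbol alone: the Gria, Grin, Grik and Grid subunits of the glutamate-gated channels, the Grm metabotropic receptors, the Gabra, Gabrb, Gabrg and Gabrd subunits of the GABA-A receptor, and Gabbr1 and Gabbr2 of the GABA-B receptor. The pattern matched 41 of the 32285 genes in the matrix, with 4 AMPA, 7 NMDA, 5 kainate and 2 delta subunits, 8 metabotropic glutamate receptors, 13 GABA-A subunits and 2 GABA-B subunits. No measured value entered the choice.

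Hippocampi of female C57/BL6J mice, 9 weeks old, were collected on day 22 and profiled by droplet-based 3′ single-cell RNA sequencing, which counts molecules by unique molecular identifiers (UMIs). Cisplatin, a platinum chemotherapy drug, or PBS, its vehicle, was given with or without sensory stimulation by light and sound at 40 Hz (GENUS) for 1 h a day over 21 days. The groups were Cisplatin stim, Cisplatin nonstim, PBS stim and PBS nonstim, with 3 libraries each. Replicate 1 of each group held 2 hippocampi of 1 animal and carries the library-name prefix 20, called the first batch here, and replicates 2 and 3 each pooled 4 hippocampi of 2 animals and carry the prefix 21, called the second batch. The labels name no allele beyond the strain, and a pooled library cannot show how its animals differ.

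Glutamate is the main excitatory transmitter of the hippocampus and GABA the main inhibitory one. AMPA, NMDA and kainate receptors are cation channels opened by glutamate, the metabotropic receptors act through G proteins, the GABA-A receptor is a chloride channel built of several subunit types, and the GABA-B receptor is a G protein-coupled dimer. Glia carry these receptors too: oligodendrocyte precursor cells (OPCs) receive synapses from neurons, and astrocytes sense transmitter that leaves the synapse.

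The authors' deposited cell types were used. Each type led in its own marker list, with mean summed levels of 10853 CPM (neurons), 25180 (astrocytes), 48779 (oligodendrocytes), 8445 (OPCs) and 22750 (microglia), but neurons also held 2870 CPM of astrocyte and 2565 of oligodendrocyte markers. The 12 libraries held 19834 cells, from 611 to 2772 each, and between 3964338 and 17656020 UMIs each. Of 19778 distinct cell barcodes, 56 occurred in more than 1 library. Median mitochondrial shares ran from 10.7% to 17.6% in first-batch libraries and from 3.19% to 5.12% in second-batch libraries. The 4 second-batch PBS libraries stood apart in transcripts that resemble ribosomal RNA (Gm42418, AY036118 and Lars2), which took 1.87% to 3.65% of UMIs there, against 0.417% to 0.782% with cisplatin in that batch. In the first batch this share was 0.34% to 0.393% with cisplatin and 0.479% to 0.542% with PBS. For the members called below, the outcome without these 4 libraries is also given.

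Receptor transcripts were most concentrated in neurons, where the 41 genes took 0.664% of all UMIs (28054 UMIs in 1074 cells). They took 0.34% in astrocytes (55670 UMIs in 2622 cells), 0.333% in OPCs (18419 UMIs in 894 cells), 0.0501% in oligodendrocytes (16702 UMIs in 4677 cells) and 0.00741% in microglia (2103 UMIs in 4530 cells). Of the 36 members with at least 100 UMIs, 21 were highest in neurons, 10 in OPCs and 5 in astrocytes. Gabra6 had no UMI, Grm6 had 1, Grin3b 16, Grm4 38 and Grm8 96. Levels below are in CPM, the UMIs of a gene scaled to an equal UMI total of the cell type in each library, as mean ± SD over 12 libraries. They count captured 3′ ends and were not scaled to transcript length, and they depend on how the 3′ end of each gene is annotated. Cell types were defined by clustering on all genes, so differences in level between types are a description without a test.

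**Figure D1:**
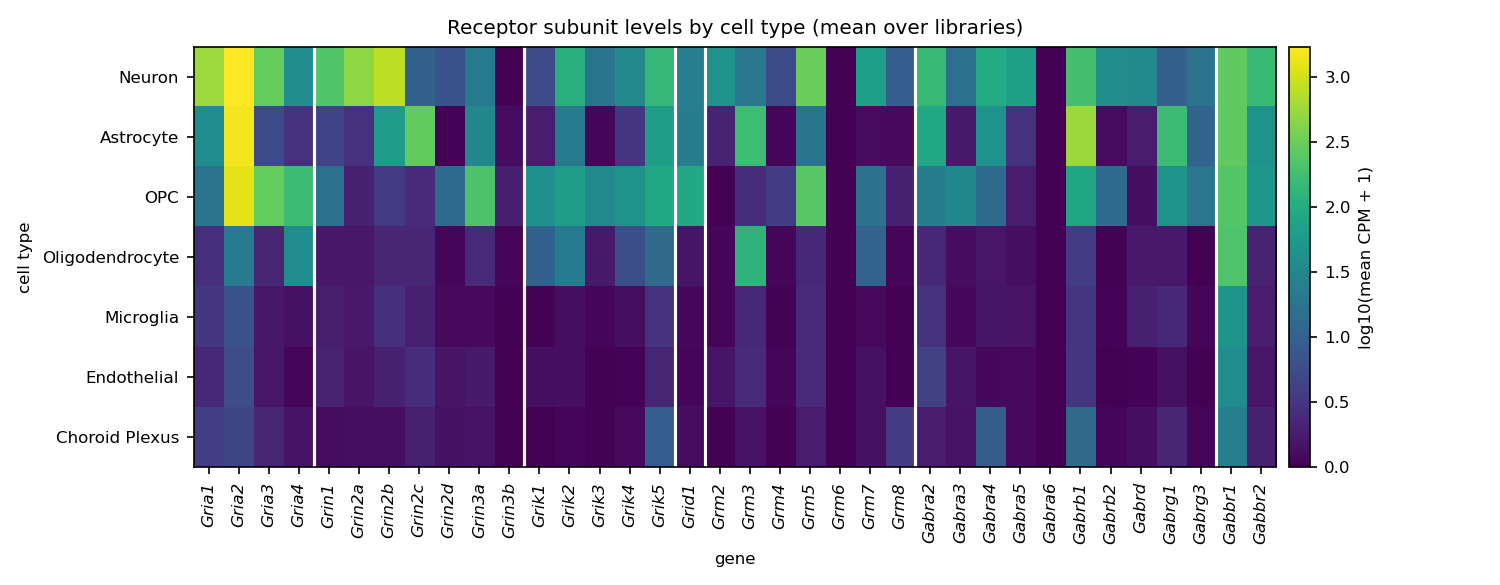
Mean level of 36 of the 41 receptor genes (columns, grouped by family with white lines) in 7 cell types (rows), as log10 of mean CPM plus 1 over the libraries. Gria2 is high in neurons, astrocytes and OPCs, while Gabbr1 has signal in every row shown.

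Among the AMPA subunits, which form the channels of fast excitation, Gria2 was abundant far beyond neurons. Gria2 encodes the subunit that makes the channel nearly impermeable to calcium. It averaged 1689 ± 417 CPM in neurons, 1486 ± 280 in astrocytes and 1243 ± 250 in OPCs, and neurons exceeded astrocytes in only 6 of 12 libraries. Oligodendrocytes held 20.8 ± 7.9 CPM of Gria2, microglia 5.56 ± 3.25 and endothelial cells 4.76 ± 2.8. The share of cells with a Gria2 UMI was 64.5% in neurons, 93.1% in astrocytes and 87.9% in OPCs, against 2.86% in endothelial cells, a type that should lack it. Neurons were sampled at a median of 3132 UMIs per cell, astrocytes at 5506 and OPCs at 6020. The neuronal values also mix the authors' neuron clusters, described below. Mean Gria2 was 3332 ± 549 CPM in cluster 12, with a UMI in 97.6% of cells, and 307 ± 285 in cluster 10, with 31.6%. Median UMIs per cell were 3404 in cluster 12 and 2928 in cluster 10.

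The other AMPA subunits divided the cell types differently. Gria1 was a neuronal transcript, with 569 ± 123 CPM in neurons, 36.6 in astrocytes and 16.3 in OPCs. Gria3 stood at 294 ± 85.6 CPM in neurons and 291 ± 51.7 in OPCs, and neurons were above OPCs in 5 of 12 libraries, so their order is not resolved. Gria4 was highest in OPCs (164 ± 38 CPM), and its levels in neurons (36.9) and oligodendrocytes (36.5 ± 15.5) lay side by side. As shares of the family's UMIs, Gria2 made up 65.2% ± 3.81 in neurons, 97.2% ± 0.875 in astrocytes and 72.1% ± 5.86 in OPCs. In oligodendrocytes Gria4 took 58.9% ± 17.5 and Gria2 35.9% ± 15.4 of an AMPA total of 60.4 ± 11.5 CPM.

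**Figure D2:**
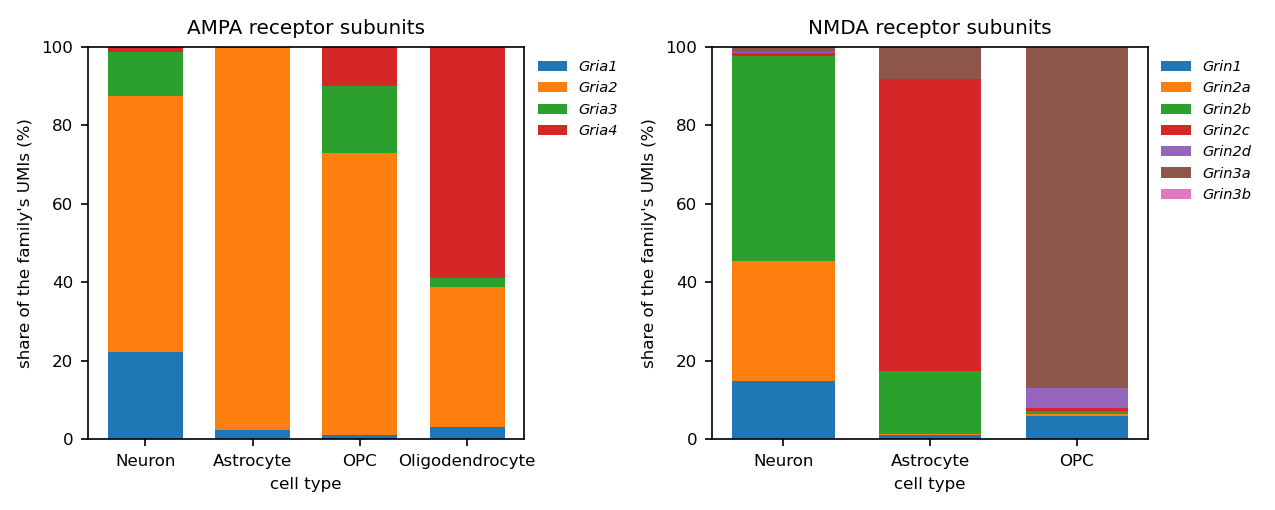
Mean share of the UMIs of the AMPA subunits (left) and NMDA subunits (right) taken by each gene, over 12 libraries, by cell type. Gria2 fills 97.2% of the astrocyte AMPA bar, and the leading NMDA subunit is Grin2b in neurons, Grin2c in astrocytes and Grin3a in OPCs.

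The NMDA subunits showed a different leading gene in each cell type. NMDA receptors combine the obligatory Grin1 subunit with Grin2 subunits, which bind glutamate, or Grin3 subunits, which bind glycine. Neurons held Grin2b at 836 ± 279 CPM, Grin2a at 477 ± 142 and Grin1 at 226 ± 54.8, which were 52.4%, 30.5% and 14.8% of the neuronal NMDA UMIs. Grin2c led in astrocytes with 284 ± 70.3 CPM, against 8.71 in neurons, and took 74.4% ± 7.2 of their NMDA UMIs. Grin3a led in OPCs with 211 ± 28.7 CPM, against 30.1 in astrocytes and 20.3 in neurons, and took 86.7% ± 1.99 there. Grin1 itself was low in these glia, at 3.46 CPM in astrocytes and 13.9 in OPCs, and Grin2d reached 12.5 CPM in OPCs. A fraction of 0.121 of the 31-base words of Grin2a is shared with other genes, so its count is the least certain of the NMDA subunits named here.

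Kainate and delta subunits were spread over neurons and the oligodendrocyte lineage. Grik5, an auxiliary kainate subunit that needs a partner to form a channel, had 139 ± 33.2 CPM in neurons, 85.9 in OPCs, 62.3 in astrocytes and 12 in oligodendrocytes. Grik2, which can form channels by itself, had 104 ± 53.8 CPM in neurons, 62.1 in OPCs, 20.5 in astrocytes and 19.9 ± 8.88 in oligodendrocytes. Grik1 was highest in OPCs at 40.9 ± 11.6 CPM, and so were Grik3 (33.2) and Grik4 (43.8). Grid1, a delta subunit that binds synaptic organisers of the cerebellin family, was also highest in OPCs, at 86.4 ± 12.9 CPM.

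Among the metabotropic receptors Grm5 led in neurons and OPCs and Grm3 in astrocytes and oligodendrocytes. Grm5, which signals through Gq, stood at 319 ± 115 CPM in neurons and 246 ± 18.9 in OPCs, with neurons above OPCs in 8 of 12 libraries. By neuron cluster it was 582 ± 136 CPM in cluster 12 and 157 ± 113 in cluster 10. Grm3, which is Gi-coupled, was mainly glial: 165 ± 61.5 CPM in astrocytes, 125 ± 25.7 in oligodendrocytes, 17.9 in neurons and 1.68 in OPCs. Astrocytes exceeded oligodendrocytes in 10 of 12 libraries. Grm2, its closest relative, was at 44.7 CPM in neurons with no UMI in OPCs, and Grm7, which is presynaptic and Gi-coupled, was at 65.2 ± 39.2 CPM in neurons, 15 in OPCs and 9.6 in oligodendrocytes.

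GABA-A subunits summed to nearly as high a level in astrocytes as in neurons, but with other genes. The family summed to 997 ± 290 CPM in neurons, 857 ± 123 in astrocytes and 345 ± 56 in OPCs, against 7.82 ± 3.76 in oligodendrocytes. Astrocytes held Gabrb1 at 547 ± 104 CPM (186 ± 48.9 in neurons) and Gabrg1 at 160 ± 25.3 (8.84 in neurons), with Gabra2 at 84.9 ± 20.4 and Gabra4 at 43.8. These 4 genes lie next to each other on chromosome 5 between Gabrg1 (start 70751047) and Gabrb1 (end 72149037; GRCm38, GENCODE vM21), and together they took most of the astrocyte total. Gabrb1 alone was 63.6% ± 4.73 and Gabrg1 18.9% ± 3.12 of the astrocyte GABA-A UMIs. Gabra4 and Gabrb1 overlap on opposite strands there.

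Neurons and OPCs used more of the family. In neurons Gabrb1 took 19.1% and Gabra2 14.9% of GABA-A UMIs. Gabra5 stood at 68.3 CPM, Gabra4 at 94.9, Gabrb2 at 37.9 and Gabrd, a subunit of receptors outside the synapse, at 33.6 ± 14.5 CPM in neurons. In OPCs Gabrb1 took 22.2% and Gabrg1 12.7%. Gabra3 (31.4 CPM in OPCs, 14 in neurons) and Gabrg3 (17.6 in OPCs, 15.9 in neurons) also had signal.

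The GABA-B receptor needs Gabbr1, which binds GABA, and Gabbr2, which couples to the G protein, and the pair was unevenly distributed. Gabbr1 averaged 276 ± 23.6 CPM in neurons, 276 ± 52.1 in astrocytes, 227 ± 23.9 in OPCs and 215 ± 29.1 in oligodendrocytes. It was the most abundant receptor gene of oligodendrocytes and of microglia (46.1 ± 6.29 CPM). Gabbr2 had 156 ± 42.6 CPM in neurons, 50.5 in OPCs and 44.6 in astrocytes, but 1.06 in oligodendrocytes and 0.796 in microglia. A Gabbr1 UMI was found in 65.9% of oligodendrocytes and 23.7% of microglia, against 18.6% of endothelial cells and 9.96% of choroid plexus cells.

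The authors' neurons comprised 3 clusters with very different receptor levels. Cluster 12 (422 cells) carried granule cell markers, with Prox1 at 248 and C1ql2 at 280 CPM pooled over libraries. Cluster 19 (136 cells) carried the Cajal-Retzius markers Reln (2873 CPM) and Ndnf (4203 CPM). Cluster 10 (516 cells) was mixed in its neuronal markers. Meg3 (346 CPM, against 12878 in cluster 12), Snhg11 (94.5 against 3107) and Snap25 (483 against 733) were lower there, while Map2 (830 against 509), Stmn2 (180 against 84.3), Tubb3 (64.4 against 43.7) and Camk2a (1838 against 1603) were higher. It also carried Slc1a2 (3320 CPM), an astrocyte gene, and Mbp (3712 CPM), a myelin gene. Its median mitochondrial share was 31.8%, against 13.9% in cluster 12 and 3.55% in cluster 19.

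Receptor levels differed widely between these clusters. Pooled Gria2 was 288 CPM in cluster 10, 3264 in cluster 12 and 837 in cluster 19. Grin2b stood at 262, 1616 and 18.9 CPM in clusters 10, 12 and 19, and Grik2 at 8.12, 215 and 7.54 CPM. Other members had another order. Gria4 (123 CPM, against 42.1 in cluster 12) and Gabrg3 (39.6 against 20.3) were highest in cluster 19. Grm3 (24.4 CPM, against 13.2 in cluster 12), Gabra3 (23.8 against 7.11), Gabrg1 (16.8 against 3.05) and Grin2c (15.1 against 1.52) were highest in cluster 10. They rest on 42, 41, 29 and 26 UMIs there, in that order. Grm3, Gabrg1 and Grin2c are among the members highest in astrocytes, and the part of astrocyte transcripts in these values was not tested. Gabbr1 was within a narrower range, with 216 CPM in cluster 10, 338 in cluster 12 and 275 in cluster 19.

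The first question was how receptor levels differed between cisplatin and PBS. UMIs were summed per library and cell type and tested with edgeR's quasi-likelihood test over all genes of the type, with the batch as a covariate, and a gene was called at a Benjamini-Hochberg adjusted p under 0.05. The low-count filter passed 27 of the 41 members in neurons, 19 in astrocytes, 20 in OPCs, 11 in oligodendrocytes and 2 in microglia, 79 gene and type pairs in all. Averaged over stimulation, cisplatin changed 16 of these, 6 higher and 10 lower. With library totals in place of TMM scaling, a setting added after the data were seen, 26 were called, 4 higher and 22 lower, and neurons held 14 of those 26 against 3 with TMM. The share of all genes called with library totals is not given, so its counts here and below are no result about the members. With the ribosomal RNA-like share as a covariate 3 of the 16 stayed called, Gria4 (-0.95, adjusted p = 0.00422) and Grik2 (-1.09, adjusted p = 0.00965) in oligodendrocytes and Grm3 in astrocytes (-0.87, adjusted p = 0.00853), and the other 13 calls named below were lost. In the second batch alone 12 of the 16 were called. The first batch, at 1 library for each group, was not tested by itself. Where the 6 cisplatin and 6 PBS libraries are said below not to overlap, this describes the values. The share of all genes tested that also do not overlap is not given, so a lack of overlap adds no support to a call. The 3 libraries of a group are separate mice or pools of mice, and a lower level in a type can come from fewer expressing cells or less RNA per cell, which cannot be told apart in summed counts.

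In oligodendrocytes the AMPA subunit Gria4, the kainate subunits Grik2 and Grik1 and the receptor Grm3 fell with cisplatin, while Gabbr1 and the AMPA subunit Gria2 rose. Of 11 tested members 6 were called, 2 higher and 4 lower, in a type where 23.3% of all 10094 genes tested were called, 11.3% higher and 12% lower. The median log2 fold change of the 11 was -0.37, against 0.01 over all genes tested. The 250 bases before the RefSeq start of Gria4, Grik2 and Grm3, which fell, and of Gabbr1, which rose, are shown as examples of called genes. They are from RefSeq on GRCm38.p6, read 5′ to 3′ on the strand of the gene, with each CG dinucleotide in capitals.
Gria4: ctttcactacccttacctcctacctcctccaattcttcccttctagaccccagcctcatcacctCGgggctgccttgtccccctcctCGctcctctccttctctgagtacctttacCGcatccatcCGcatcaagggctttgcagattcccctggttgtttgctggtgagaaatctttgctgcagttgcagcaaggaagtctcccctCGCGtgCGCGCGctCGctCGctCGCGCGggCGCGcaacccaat
Grik2: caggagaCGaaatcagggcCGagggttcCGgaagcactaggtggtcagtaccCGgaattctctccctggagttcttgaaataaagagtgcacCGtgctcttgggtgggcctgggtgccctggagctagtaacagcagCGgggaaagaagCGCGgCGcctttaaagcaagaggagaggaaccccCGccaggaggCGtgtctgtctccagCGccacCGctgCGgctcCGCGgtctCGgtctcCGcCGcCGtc
Grm3: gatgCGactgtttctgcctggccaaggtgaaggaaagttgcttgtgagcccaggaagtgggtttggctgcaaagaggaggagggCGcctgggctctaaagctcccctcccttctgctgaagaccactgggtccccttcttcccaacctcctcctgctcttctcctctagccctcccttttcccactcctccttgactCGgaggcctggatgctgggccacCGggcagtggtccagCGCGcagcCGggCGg
Gabbr1: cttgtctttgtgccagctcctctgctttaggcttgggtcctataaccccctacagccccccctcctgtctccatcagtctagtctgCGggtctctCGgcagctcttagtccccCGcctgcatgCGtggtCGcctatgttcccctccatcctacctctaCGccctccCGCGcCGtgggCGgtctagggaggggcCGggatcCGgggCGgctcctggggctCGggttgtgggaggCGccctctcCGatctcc

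These windows lie at chr9:4796235-4796484 for Gria4, chr10:49788755-49789004 for Grik2 and chr5:9725353-9725602 for Grm3, all on the minus strand, and at chr17:37045716-37045965 for Gabbr1 on the plus strand. They hold 16, 20, 8 and 16 CG dinucleotides in that order. Over the 33 windows found for 26 of the member symbols the median was 9 CG dinucleotides and 60.4% G and C, against 6 and 52.4% over all 32851 promoter windows. G and C content was 58.8% for Gria4, 62.8% for Grik2 and 62.4% for Grm3, which fell. It was 66% for Gabbr1 and 64.8% for Gria2, which rose. These are too few windows for a comparison. No motif was searched.

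Gria4 separated the treatments in oligodendrocytes. Replicates 1, 2 and 3 held 20.2, 23.7 and 18 CPM in Cisplatin stim, 19.6, 30.6 and 27.6 in Cisplatin nonstim, 48.5, 52.2 and 50.8 in PBS stim and 32.2, 58.6 and 55.8 in PBS nonstim. All 6 cisplatin libraries were below all 6 PBS libraries. The log2 fold change averaged over stimulation was -1.06 (SE 0.12, edgeR adjusted p = 3.62e-06), and without the 4 second-batch PBS libraries it was -0.97 (adjusted p = 0.0253). It was the only member called without those libraries in that comparison, and it was called in every alternative run.

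Grik2 separated them too. It had 10.1, 4.73 and 11.5 CPM in Cisplatin stim, 21, 12.4 and 14.5 in Cisplatin nonstim, 26.3, 26.3 and 33.1 in PBS stim and 26.4, 28 and 24.7 in PBS nonstim. Here too no cisplatin library reached a PBS library. The fold change was -1.19 (SE 0.17, edgeR adjusted p = 3.04e-05), and without the 4 PBS libraries -0.76 (adjusted p = 0.194). Grik2 spans chromosome 10 from 49094833 to 49788766 and overlaps 6 unnamed genes on its own strand, so reads of those genes may be split with it.

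Grm3 and Grik1 fell with some overlap. Grm3 had 90, 106 and 102 CPM in Cisplatin stim, 106, 119 and 114 in Cisplatin nonstim, 114, 144 and 175 in PBS stim and 128, 151 and 156 in PBS nonstim, and only replicate 1 of PBS stim lay within the cisplatin range. Its fold change was -0.42 (SE 0.07, edgeR adjusted p = 0.0004). Grik1 had 4.81, 6.51 and 7.38 CPM in Cisplatin stim, 6.42, 6.87 and 6.14 in Cisplatin nonstim, 6.06, 14.2 and 12.9 in PBS stim and 9.3, 11 and 16.4 in PBS nonstim, with a fold change of -0.86 (SE 0.2, edgeR adjusted p = 0.00331). Without the 4 second-batch PBS libraries these became -0.27 (adjusted p = 0.329) for Grm3 and -0.36 (adjusted p = 0.753) for Grik1.

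Gabbr1 and Gria2 were higher with cisplatin in the same cells. Gabbr1 had 243, 241 and 255 CPM in Cisplatin stim, 201, 239 and 246 in Cisplatin nonstim, 213, 197 and 205 in PBS stim and 197, 163 and 182 in PBS nonstim. Its fold change was 0.34 (SE 0.07, edgeR adjusted p = 0.00146), and 0.14 without the 4 PBS libraries (adjusted p = 0.588). Gria2 had 35.6, 29 and 30 CPM in Cisplatin stim, 19.3, 22.7 and 13.6 in Cisplatin nonstim, 19.2, 9.93 and 15.3 in PBS stim and 22.5, 22.1 and 10.7 in PBS nonstim. The 3 stimulated cisplatin libraries lay above the other 9, and the other groups overlapped. The Gria2 fold change of 0.64 (SE 0.18, edgeR adjusted p = 0.0144) was no longer called without replicate 2 of PBS stim or replicate 2 of Cisplatin nonstim (adjusted p = 0.0616 to 0.0859), without cells over 10% mitochondrial UMIs, or without the 4 PBS libraries (0.37, adjusted p = 0.519).

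**Figure D3:**
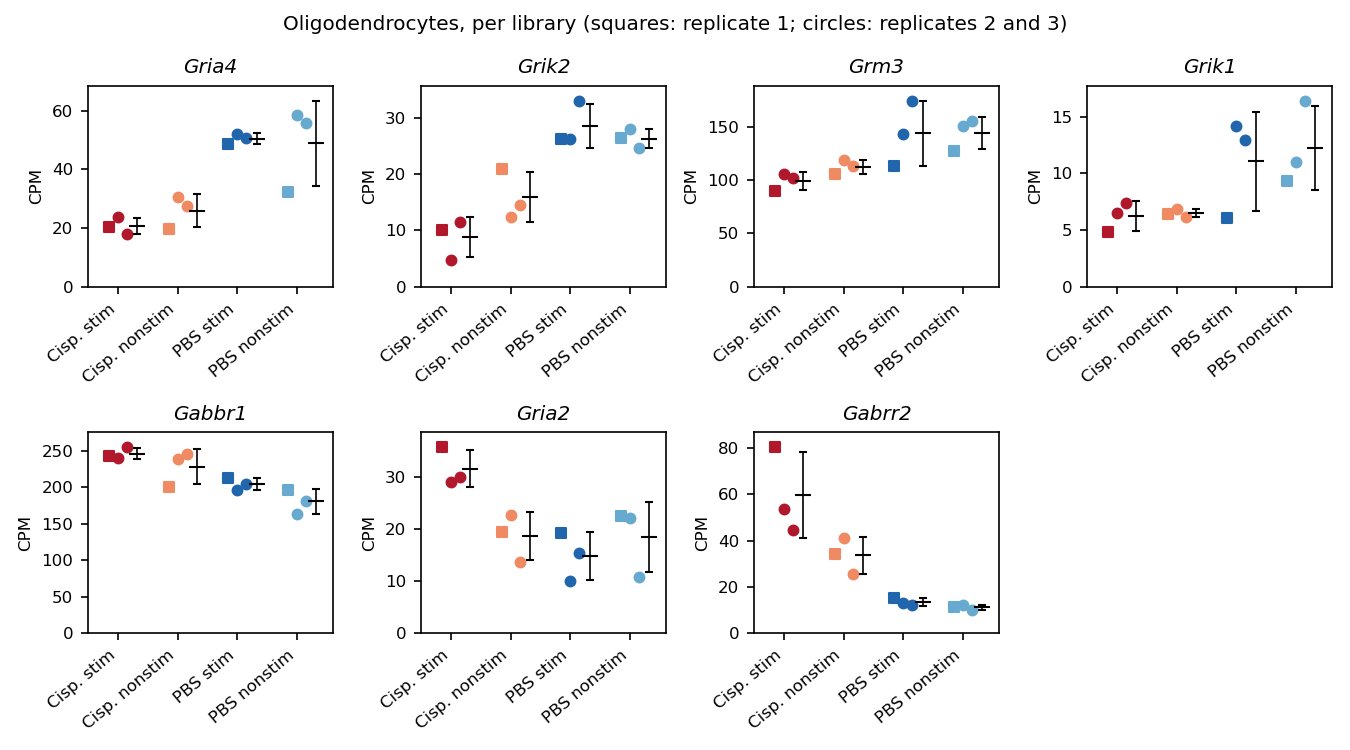
CPM in oligodendrocytes of 6 called receptor genes and of the partner gene Gabrr2, by library and group; bars are mean ± SD of 3 libraries. Every cisplatin point of Gria4 and Grik2 lies below every PBS point, and every cisplatin point of Gabrr2 lies above every PBS point of that gene.

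With Gria4 lower and Gria2 higher, the AMPA share held by Gria2 in oligodendrocytes was 56.9% ± 4.4 in Cisplatin stim, 37.9% ± 6.03 in Cisplatin nonstim, 21.9% ± 5.66 in PBS stim and 26.7% ± 11.2 in PBS nonstim (SD, n = 3 each). Gria4 held 37.4% ± 6.43, 53.6% ± 10.3, 75.8% ± 7.48 and 68.6% ± 13.3 in the same 4 groups. These shares were not tested, since they are scores over members. The neuronal marker list (8 genes) summed to a median of 208 CPM in the cisplatin oligodendrocytes (175 to 379) and 119 in the PBS ones (61.6 to 152), with Snap25 and Tubb3 called higher of 5 tested. Its part in the Gria2 and Gabbr1 values was not tested. The OPC marker list (5 genes) summed to 7.89 to 27.8 CPM with cisplatin and 10.6 to 21.3 with PBS.

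For Gria4, Grik2 and Gabbr1 the direction was shared by the authors' oligodendrocyte clusters, and Grm3, Grik1 and Gria2 are not shown by cluster. In the second batch cluster 7 made up 25.7% to 31% of oligodendrocytes with cisplatin and 18.7% to 24.8% with PBS. In the first batch it made up 40.1% and 47.3% with cisplatin and 42.3% and 43.4% with PBS. The part of these shares in the calls was not tested. Mean Gria4 in cisplatin and PBS libraries was 27.5 and 49.6 CPM in cluster 2, 22.4 and 56.2 in cluster 7, 19.9 and 40.4 in cluster 8 and 18.4 and 45.2 in cluster 11. Grik2 was at 20.5 with cisplatin and 38.2 with PBS in cluster 2, 11.3 and 36.9 in cluster 7, 8.35 and 19.5 in cluster 8, and 15 and 22 in cluster 11. Gabbr1 was higher with cisplatin in each of them, from 246 against 234 CPM in cluster 11 to 251 against 182 in cluster 8. Cluster 11 came almost wholly from the libraries of the first batch, with 2 libraries per treatment.

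Set against their own controls, the unstimulated and the stimulated mice shared the oligodendrocyte calls of Gria4 and Grik2. In Cisplatin nonstim against PBS nonstim 4 of the 79 pairs were called, 1 higher and 3 lower and all in oligodendrocytes, where 6.25% of all genes were called, 3.33% higher and 2.92% lower. Gria4 fell (-0.87, SE 0.15, edgeR adjusted p = 0.00246), as did Grik2 (-0.71, SE 0.2, adjusted p = 0.0413) and Grik1 (-0.87, SE 0.25, adjusted p = 0.0427), and Gabbr1 rose (0.38, SE 0.1, adjusted p = 0.0216). With the replicate number as a block Grik2 (-0.70, adjusted p = 0.0527) and Grik1 (-0.85, adjusted p = 0.0616) missed the threshold. No call in this comparison remained with the ribosomal RNA-like covariate or without the 4 second-batch PBS libraries, where Gria4 stood at -0.48 (adjusted p = 0.655).

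Single libraries also moved these calls. The count of 4 became 7 without replicate 1 of Cisplatin stim, 2 without replicate 2 of PBS nonstim or of PBS stim, and 1 without replicate 3 of PBS nonstim or replicate 2 or 3 of Cisplatin nonstim. Gabbr1 was lost without replicate 2 or 3 of PBS nonstim or of Cisplatin nonstim (adjusted p = 0.0972 to 0.143), and Grik2 was lost without any of these or replicate 2 of PBS stim (0.0582 to 0.302). Grik1 was lost without 7 libraries, namely replicates 2 and 3 of Cisplatin stim, Cisplatin nonstim and PBS stim and replicate 3 of PBS nonstim (0.0516 to 0.279). Gria4 passed without each library in turn and was the 1 call left with no batch term. DESeq2 and the fit without cells over 10% mitochondrial UMIs did not call Grik2 or Grik1, and limma-voom did not call Grik1.

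In Cisplatin stim against PBS stim 9 of the 79 pairs were called, 1 higher and 8 lower, against 1 higher and 14 lower with library totals. With the ribosomal RNA-like covariate 5 of the 9 stayed called, namely Gria4, Grik2 and Grm3 in oligodendrocytes and Grm3 and Gabra2 in astrocytes. Oligodendrocytes held 4 of these, where 14.5% of all genes were called, 7.03% higher and 7.49% lower: Gria4 (-1.24, SE 0.18, edgeR adjusted p = 0.000109), Grik2 (-1.68, SE 0.26, adjusted p = 0.00016) and Grm3 (-0.52, SE 0.11, adjusted p = 0.00255) fell and Gria2 rose (1.17, SE 0.27, adjusted p = 0.00604). Without the 4 second-batch PBS libraries Gria4 was called (-1.46, adjusted p = 0.0166) and Grik2 (-1.19, 0.183), Grm3 (-0.31, 0.467) and Gria2 (0.82, 0.315) were not. Gria2 also missed the threshold without replicate 2 of PBS stim (adjusted p = 0.0565) and with the ribosomal RNA-like covariate (0.76, adjusted p = 0.114).

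In astrocytes Grm3, Gabra2, Grin3a and Grm5 fell with cisplatin and Gria2 rose. Of 19 tested members 5 were called averaged over stimulation, 1 higher and 4 lower, where 5.02% of all 10163 genes were called, 2.6% higher and 2.42% lower. The median log2 fold change was -0.25 over the 19 members and -0.003 over all genes tested.

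Astrocyte Grm3, the main metabotropic glutamate receptor of these cells, had 63.5, 96.8 and 116 CPM in Cisplatin stim, 143, 142 and 115 in Cisplatin nonstim, 208, 227 and 254 in PBS stim and 161, 215 and 233 in PBS nonstim. The 6 cisplatin libraries lay below the 6 PBS libraries. Its fold change was -0.97 (SE 0.11, edgeR adjusted p = 3.42e-06), it held without each library in turn, and without the 4 second-batch PBS libraries it was -0.84 (adjusted p = 0.0544). In Cisplatin stim against PBS stim Grm3 was at -1.33 (SE 0.17, edgeR adjusted p = 1.14e-05) and stayed called without those libraries (-1.32, adjusted p = 0.0186).

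Gabra2, an alpha subunit of the GABA-A receptor, had 46.7, 52.9 and 71.8 CPM in Cisplatin stim, 82.2, 89.7 and 74.8 in Cisplatin nonstim, 92.3, 106 and 115 in PBS stim and 92.4, 95 and 99.3 in PBS nonstim astrocytes. The 3 stimulated cisplatin libraries were the lowest, and no cisplatin library reached a PBS library. The fold change was -0.54 averaged over stimulation (SE 0.11, edgeR adjusted p = 0.00266) and -0.86 in Cisplatin stim against PBS stim (SE 0.16, adjusted p = 0.0023). Without the 4 PBS libraries these were -0.50 (adjusted p = 0.387) and -0.78 (adjusted p = 0.274). Its chromosome 5 neighbours did not pass averaged over stimulation: Gabrg1 was at -0.31 (adjusted p = 0.079) with no overlap between the 6 cisplatin and the 6 PBS libraries, Gabra4 at -0.42 (0.103) and Gabrb1 at -0.11 (0.564).

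Gria2 was higher in cisplatin astrocytes. It had 1457, 1551 and 1609 CPM in Cisplatin stim, 1809, 1932 and 1873 in Cisplatin nonstim, 1178, 1237 and 1302 in PBS stim and 1533, 1160 and 1188 in PBS nonstim. Replicate 1 of PBS nonstim was the only PBS library within the cisplatin range. The fold change was 0.42 (SE 0.1, edgeR adjusted p = 0.00832), and 0.33 without the 4 PBS libraries (adjusted p = 0.475). It was also not called without a batch term or without cells over 10% mitochondrial UMIs. The excitatory neuron list (4 genes) summed to 60.6 to 334 CPM in cisplatin astrocytes and 54.5 to 267 in PBS astrocytes, with Slc17a7 called higher, and its part was not tested.

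Grin3a and Grm5 fell less firmly in astrocytes. Grin3a had 14.9, 14.2 and 25.8 CPM in Cisplatin stim, 30.9, 30.1 and 23 in Cisplatin nonstim, 30.2, 44.5 and 48.2 in PBS stim and 23.5, 37 and 39.1 in PBS nonstim, and its fold change of -0.67 (SE 0.17, edgeR adjusted p = 0.0151) was lost without replicate 3 of Cisplatin nonstim (adjusted p = 0.0605) or the 4 PBS libraries (-0.21, 0.871). In Cisplatin stim against PBS stim it was -1.11 (SE 0.25, edgeR adjusted p = 0.0105), lost without replicate 3 of PBS stim or replicate 2 of Cisplatin stim (0.0545 to 0.0595) and without the 4 PBS libraries (-0.71, 0.581). Grm5, at 9.08, 12.9 and 10.1 CPM in Cisplatin stim, 11.2, 14.7 and 18.2 in Cisplatin nonstim, 16.4, 26.9 and 20.7 in PBS stim and 17.4, 16.7 and 30.4 in PBS nonstim, was at -0.77 (SE 0.21, edgeR adjusted p = 0.0264). The Grm5 call was lost without 4 single libraries, namely replicate 3 of PBS nonstim or Cisplatin stim and replicate 2 of PBS stim or Cisplatin nonstim (0.0808 to 0.0972), under limma-voom (0.0505) and without the 4 PBS libraries (-0.68, 0.574). With no batch term both Grin3a calls and the Grm5 call were lost, and the Grin3a call in the stimulated arm was also lost without cells over 10% mitochondrial UMIs.

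In astrocytes the 3 calls of Cisplatin stim against PBS stim were all lower, where 2.6% of all genes were called, 1.38% higher and 1.22% lower. Cisplatin nonstim against PBS nonstim gave no astrocyte call by edgeR, where 0.364% of all genes were called by adjusted p. Of the 19 members 5 had an unadjusted p under 0.05, a threshold at which the share of all genes is not given. Grm3 (-0.60, SE 0.16, adjusted p = 0.103) and Gria2 (0.52, SE 0.14, adjusted p = 0.103) were nearest there. DESeq2 and limma-voom each called 1 member in that comparison, Gria2.

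**Figure D4:**
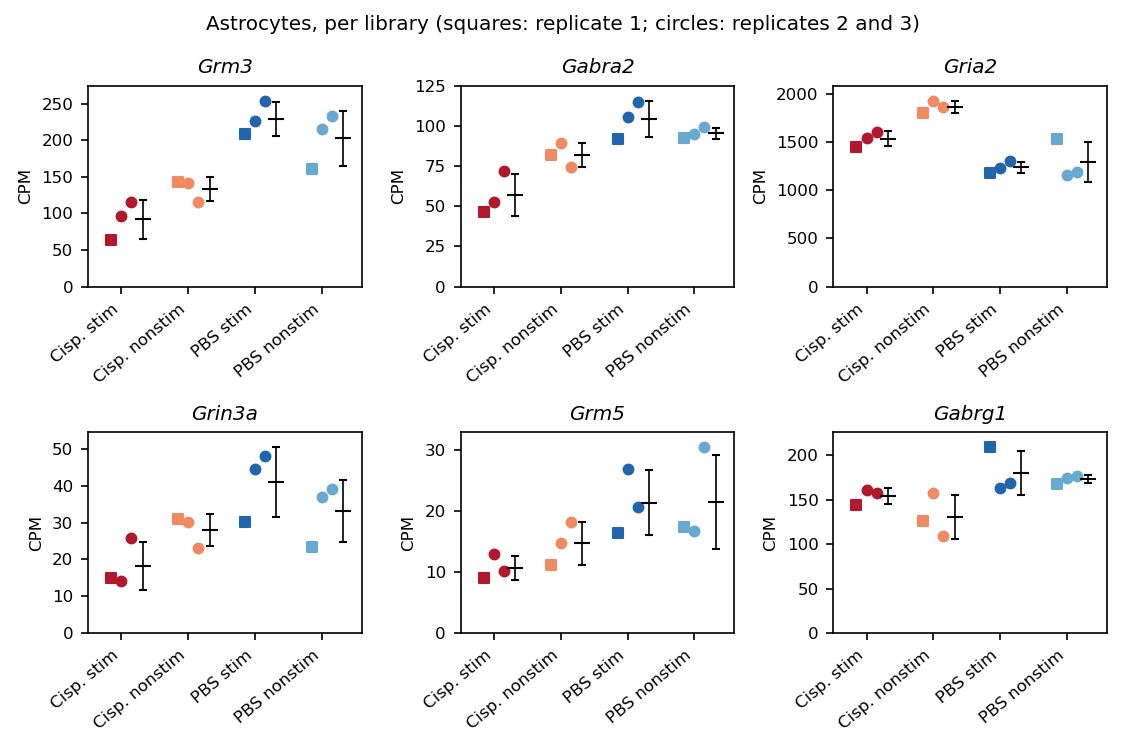
CPM of 6 receptor genes in astrocytes by library and group, with mean ± SD of 3 libraries beside the points. Grm3, Gabra2 and Gabrg1 show no overlap between the cisplatin and PBS libraries, and Gria2 is highest in Cisplatin nonstim.

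OPCs gave 2 calls among 20 tested members, both higher with cisplatin, where 2.26% of all 7684 genes were called, 1.55% higher and 0.716% lower. Gabrb1, a GABA-A beta subunit, had 137, 55.5 and 82.2 CPM in Cisplatin stim, 126, 70.1 and 107 in Cisplatin nonstim, 88.7, 52.6 and 40.6 in PBS stim and 69.9, 54.2 and 53.6 in PBS nonstim OPCs. Cisplatin nonstim lay above PBS nonstim and the other pairs of groups overlapped, and replicate 1 was highest in each group. The fold change was 0.70 (SE 0.16, edgeR adjusted p = 0.015), lost without replicate 1 or 3 of Cisplatin stim or replicate 3 of Cisplatin nonstim (adjusted p = 0.0518 to 0.0623), with no batch term (0.77, 0.0897), without cells over 10% mitochondrial UMIs (0.58, 0.0752), in the second batch alone (0.65, 0.0894) and without its 4 PBS libraries (0.78, 0.297).

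OPC Gria2 had 1840, 1143 and 1321 CPM in Cisplatin stim, 1487, 1206 and 1271 in Cisplatin nonstim, 1227, 935 and 1041 in PBS stim and 1397, 1009 and 1040 in PBS nonstim. Its fold change was 0.35 (SE 0.09, edgeR adjusted p = 0.0313), which fell short of a call without any of 8 libraries (adjusted p = 0.0616 to 0.103): replicate 1 or 3 of Cisplatin stim, replicate 2 or 3 of Cisplatin nonstim, replicate 1 or 2 of PBS stim and replicate 2 or 3 of PBS nonstim. Without the 4 second-batch PBS libraries it was 0.41 (adjusted p = 0.361), and with library totals alone 0.31 (adjusted p = 0.0626). The call was also lost in the second batch alone (0.31, adjusted p = 0.0987), with no filter (0.33, 0.0554) and with no batch term (0.36, 0.266). Gria4 was at -0.43 in these cells (adjusted p = 0.0845), which did not pass. The AMPA share of Gria2 was 80.5%, 77.7% and 76.9% in Cisplatin stim, 76.2%, 76.8% and 74.9% in Cisplatin nonstim, 68.4%, 66.1% and 66.7% in PBS stim and 72.9%, 63.5% and 64.9% in PBS nonstim OPCs, so that every cisplatin library was above every PBS library in this untested score.

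Neither arm alone gave an OPC call. By adjusted edgeR p 0.299% of all genes were called in Cisplatin nonstim against PBS nonstim and 0.716% in Cisplatin stim against PBS stim. An unadjusted p under 0.05 was found for 3 of 20 and 4 of 20 members in that order. The share of all genes at that threshold is not given. In the unstimulated arm Gabrb1 was at 0.75 (adjusted p = 0.151) and Gria4 at -0.43 (adjusted p = 0.386), and in the stimulated arm Gria2 was at 0.46 (adjusted p = 0.0963) and Gabrb1 at 0.65 (adjusted p = 0.286). DESeq2 and limma-voom called Gria2 in the stimulated arm. Astrocyte markers (8 genes) summed to 1209 to 1643 CPM in cisplatin OPCs and 935 to 1519 in PBS OPCs, and their part in the Gabrb1 and Gria2 values was not tested.

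Neurons showed lower Grm7, Grik2 and Gabra2 and higher Grik5 with cisplatin, in data where the neuron clusters themselves shifted. Of 27 tested members 3 were called averaged over stimulation, 1 higher and 2 lower, where 8.38% of all 6561 genes were called, 6.69% higher and 1.69% lower. The median log2 fold change was -0.25 over the 27 members and -0.084 over all genes tested.

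Cluster 10 made up 74.8% of 282 neurons in Cisplatin stim, 52.1% of 238 in Cisplatin nonstim, 37.9% of 235 in PBS stim and 28.8% of 319 in PBS nonstim. By library its share was 78.1%, 80.4% and 51.3% in Cisplatin stim, 50.5%, 46.8% and 61.7% in Cisplatin nonstim, 68.1%, 23.1% and 27.3% in PBS stim and 32.6%, 29.3% and 24.7% in PBS nonstim. Astrocyte markers (8 genes) in the neurons summed to a median of 3484 CPM with cisplatin (2014 to 7627) and 1772 with PBS (1278 to 1975), and 4 of 7 tested were called higher. The oligodendrocyte markers (6 genes) summed to 3296 CPM with cisplatin (1469 to 5053) and 822 with PBS (642 to 4604), with 3 of 3 tested higher. Mean levels in clusters 12 and 10 were 134 and 15.2 CPM for Grm7 and 227 and 9.59 for Grik2. They were 269 and 55.1 CPM for Gabra2 and 215 and 85.2 for Grik5. Of these Grik5 alone was called higher with cisplatin. The part of the cluster shift in the values below was not tested beyond the fits without cluster 10.

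The scaling moved the neuronal values more than those of the other 4 types. The TMM factors, which set the gene-wide balance between libraries, ran from 0.722 to 0.993 in the cisplatin neurons and from 0.89 to 1.29 in the PBS neurons. With library totals alone the median averaged fold change of all genes tested in neurons was -0.47 (-0.084 with TMM), and 14 members were called lower and 0 higher. For Cisplatin stim against PBS stim that median was -0.54 (-0.089 with TMM), with 8 members lower. Among the 14 were Grm7 (-1.64), Gabra2 (-1.08), Gabrb2 (-1.04), Grm5 (-0.78), Grin2b (-0.76) and Grin2a (-0.52), and Gria2 was at -0.48 (adjusted p = 0.0732). Each of these values and counts includes the shift of the median, and the counts lack the share of all genes called with library totals. Fold changes below use TMM unless another tool or scaling is named. The neuronal CPM below are scaled to library totals, so they and any lack of overlap among them include that shift.

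Grm7 had 13.1, 12.4 and 27.5 CPM in Cisplatin stim, 32.4, 70.5 and 67 in Cisplatin nonstim, 70.4, 146 and 79.3 in PBS stim and 98.3, 68.7 and 96.7 in PBS nonstim neurons. These rest on few molecules, from 2 to 9 UMIs per library in Cisplatin stim and 21 to 51 in PBS stim. The fold change was -1.25 averaged over stimulation (SE 0.28, edgeR adjusted p = 0.00722) and -2.11 in Cisplatin stim against PBS stim (SE 0.44, adjusted p = 0.0175). In Cisplatin stim against PBS stim the call was lost without replicate 1 or 2 of Cisplatin stim or replicate 2 or 3 of PBS stim (adjusted p = 0.0531 to 0.199). Without cluster 10 the averaged value was -0.83 (adjusted p = 0.477), in cluster 12 alone -1.04 (adjusted p = 0.271) and without the 4 second-batch PBS libraries -1.81 (adjusted p = 0.364). In the second batch alone it was -0.92 (adjusted p = 0.0831). For Cisplatin stim against PBS stim Grm7 was at -2.38 without those 4 libraries (adjusted p = 0.699), -2.16 with no batch term (adjusted p = 0.0564) and -1.60 without cluster 10 (adjusted p = 0.991).

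Gabra2 in neurons had 52.6, 118 and 68.7 CPM in Cisplatin stim, 120, 98 and 144 in Cisplatin nonstim, 157, 264 and 235 in PBS stim and 192, 189 and 151 in PBS nonstim. No cisplatin library reached a PBS library in these CPM, which lack TMM scaling. The fold change with TMM was -0.68 (SE 0.21, edgeR adjusted p = 0.0471). It stayed called only without replicate 1 of PBS stim or replicate 2 of Cisplatin stim. It was lost without each of the other 10 libraries (adjusted p = 0.054 to 0.248). Without cluster 10 it was -0.41 (adjusted p = 0.693), without the 4 second-batch PBS libraries -0.91 (adjusted p = 0.999) and in the second batch alone -0.48 (adjusted p = 0.236). It was also not called by DESeq2 (-0.63, adjusted p = 0.0981), with RLE size factors (-0.64, 0.0644) or with no batch term (-0.66, 0.0981). Within cluster 12 Gabra2 averaged 197 ± 67.1 CPM in 5 cisplatin libraries (122 UMIs) and 328 ± 89.1 in 6 PBS libraries (395 UMIs), without TMM scaling. In the fit of cluster 12 alone Gabra2 was not called.

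Grik5 had 142, 155 and 165 CPM in Cisplatin stim, 117, 219 and 134 in Cisplatin nonstim, 101, 149 and 91.1 in PBS stim and 139, 123 and 131 in PBS nonstim neurons. Cisplatin stim lay just above PBS nonstim, and the other pairs of groups overlapped. The fold change of 0.71 (SE 0.2, edgeR adjusted p = 0.0238) was lost without replicate 2 of Cisplatin nonstim, replicate 3 of PBS stim or replicate 2 or 3 of PBS nonstim (adjusted p = 0.0547 to 0.104), with no filter (0.67, 0.054), with no batch term (0.71, 0.0533), without cluster 10 (0.68, 0.477) and without the 4 PBS libraries (0.35, 0.999). Scaled to library totals alone it was 0.31 (adjusted p = 0.239).

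Grik2 was called in Cisplatin stim against PBS stim, with 35.1, 43.3 and 54.9 CPM in Cisplatin stim and 70.4, 201 and 165 in PBS stim neurons. Its fold change of -1.11 (SE 0.29, edgeR adjusted p = 0.0442) stayed called without replicate 1 or 3 of Cisplatin nonstim or replicate 1 of PBS stim and was lost without each of the other 9 libraries (0.0571 to 0.31), and without cluster 10 it was -0.52 (adjusted p = 0.991). It was -0.96 without the 4 second-batch PBS libraries (adjusted p of 1), -1.15 with no filter (adjusted p = 0.0655) and -1.30 with no batch term (adjusted p = 0.103). With Grm7 this made 2 neuronal calls in that comparison, both lower, where 2.27% of all genes were called, 1.97% higher and 0.305% lower. In Cisplatin nonstim against PBS nonstim no neuronal member was called by edgeR, DESeq2 or limma-voom, where 0.0152% of all genes were called by adjusted edgeR p. An unadjusted p under 0.05 was found for 1 member, without the share of all genes at that threshold. Grin3a (-1.41, adjusted p = 0.422) and Grik5 (0.54, adjusted p = 0.446) were nearest there.

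**Figure D5:**
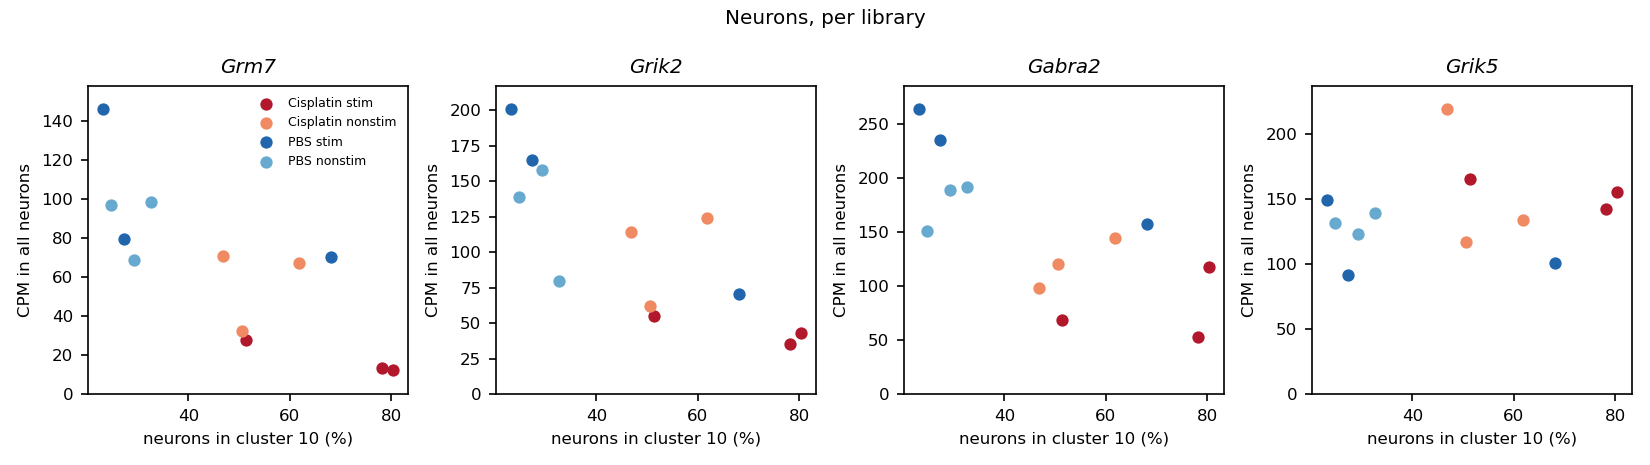
CPM of Grm7, Grik2, Gabra2 and Grik5 in all neurons of a library (vertical axes) against the percent of its neurons in cluster 10 (horizontal axes), 1 point per library, coloured by group. The CPM are scaled to library totals, without TMM. The libraries with 78.1% and 80.4% of neurons in cluster 10, both Cisplatin stim, have the lowest Grm7. Replicate 1 of PBS stim, at 68.1%, has 70.4 CPM of Grm7, and replicate 3 of Cisplatin stim, at 51.3%, has 27.5.

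The main synaptic receptors of neurons did not pass with TMM scaling. Averaged over stimulation Gria2 was at -0.08 (SE 0.21, edgeR adjusted p = 0.854), Gria1 at 0.08 (SE 0.18, adjusted p = 0.833), Grin2a at -0.12 (SE 0.18, adjusted p = 0.73) and Grin2b at -0.37 (SE 0.2, adjusted p = 0.266). Neuronal Grm5 was at -0.39 (SE 0.19, adjusted p = 0.217). Its 6 cisplatin libraries lay below its 6 PBS libraries in CPM, which are scaled to library totals. Grin2a made up 38.3% ± 3.62 of the sum of Grin2a and Grin2b in Cisplatin stim, 39.4% ± 4.77 in Cisplatin nonstim, 34.5% ± 3.81 in PBS stim and 34.9% ± 4.25 in PBS nonstim neurons (SD, n = 3 each), a spread in which the groups overlapped.

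Microglia expressed too little of the family for more than 2 members to be tested, and neither was called by edgeR, DESeq2 or limma-voom with 14.8% of all 9903 genes called averaged over stimulation. Gabbr1 had 40.5, 34.2 and 48.3 CPM in Cisplatin stim, 46.5, 41.3 and 55.7 in Cisplatin nonstim, 43.2, 43.9 and 49.7 in PBS stim and 56.9, 47 and 45.5 in PBS nonstim. The groups overlapped, and the fold change was -0.11 (SE 0.11, edgeR adjusted p = 0.543). Gria2 was at 0.04 (SE 0.33, adjusted p = 0.964). Neither had an unadjusted p under 0.05 in Cisplatin nonstim against PBS nonstim (3.59% of all genes called) or in Cisplatin stim against PBS stim (5.24%), with Gabbr1 at -0.06 and -0.15 and Gria2 at 0.41 and -0.34 in these comparisons.

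The second question was what stimulation did. In Cisplatin stim against Cisplatin nonstim edgeR, DESeq2 and limma-voom each called 0 of the 79 pairs. An unadjusted edgeR p under 0.05 was found for 16, and the share of all genes at that threshold is not given. By adjusted p all genes were called at 0% in neurons, 0.0295% in astrocytes, 0.0521% in OPCs, 0.991% in oligodendrocytes and 0.131% in microglia. The members nearest to a call were Grik2 (-0.83, SE 0.27, edgeR adjusted p = 0.188) and Gria2 (0.70, SE 0.24, adjusted p = 0.218) in oligodendrocytes and Grm3 (-0.58, SE 0.17, adjusted p = 0.347) and Gabra2 (-0.53, SE 0.16, adjusted p = 0.378) in astrocytes. In neurons Grm7 was at -1.55 (adjusted p = 0.677), in OPCs Grik5 at 0.49 (0.913) and Gabbr2 at -0.61 (0.92), and in microglia Gabbr1 at -0.17 (0.892) and Gria2 at -0.33 (0.941). Without the low-count filter 3 pairs were called, Gria2 and Grik2 in oligodendrocytes and Gria1 in astrocytes, and in the second batch alone 1, Gria1 in astrocytes.

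The median log2 fold change of stimulation in cisplatin mice was -0.43 over the neuronal members, -0.34 over the astrocyte members, -0.05 over the OPC members and -0.08 over the oligodendrocyte members. Over all genes tested it was -0.019 in neurons, 0.005 in astrocytes, -0.005 in OPCs and 0.009 in oligodendrocytes. The cluster 10 share of neurons was highest in Cisplatin stim, and its part in the neuronal values was not tested beyond the fits without that cluster.

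In PBS stim against PBS nonstim no pair was called by any of the 3 tools, 0 had an unadjusted edgeR p under 0.05, and 0% of all genes were called in each of the 5 types. Every adjusted p was 1. Among the members with the smallest p were Gabbr1 in oligodendrocytes (0.19, SE 0.1) and Gria2 (-0.36, SE 0.27), Grik5 in astrocytes (0.32, SE 0.17) and Gabbr1 (0.23, SE 0.14), Grid1 in neurons (-0.60, SE 0.48), Grik5 in OPCs (0.32, SE 0.21) and Gabbr2 (-0.30, SE 0.25), and Gria2 in microglia (0.42, SE 0.41) and Gabbr1 (-0.08, SE 0.14).

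The interaction asks whether stimulation acted differently in cisplatin and PBS mice. No pair was called by the 3 tools. By adjusted edgeR p all genes were called at 0.0152% in neurons, 0.00984% in astrocytes, 0.013% in OPCs, 0.0892% in oligodendrocytes and 0.0303% in microglia. An unadjusted edgeR p under 0.05 was found for 14 pairs, without the share of all genes at that threshold. Gria2 (1.05, SE 0.36, edgeR adjusted p = 0.412) and Grik2 (-0.97, SE 0.33, adjusted p = 0.416) came first in oligodendrocytes, Grm3 (-0.73, SE 0.23, adjusted p = 0.706) and Grik5 (-0.76, SE 0.25, adjusted p = 0.765) in astrocytes, and Grm7 (-1.72, SE 0.57) and Grik2 (-1.09, SE 0.39) in neurons, the neuronal pair at an adjusted p of 1. In OPCs Grik4 was at 0.61 and Gria2 at 0.22 (adjusted p = 0.953 for each), and in microglia Gria2 was at -0.75 and Gabbr1 at -0.09 (adjusted p of 1). Without the low-count filter 1 pair was called, Gria2 in oligodendrocytes.

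Other genes of glutamate and GABA signalling were taken from a list of 55 transporters, enzymes, scaffolds and auxiliary or further subunits, of which 156 gene and type pairs were tested. Cisplatin averaged over stimulation changed 27 of them, 18 higher and 9 lower. Of 42 tested in neurons 9 were higher and 1 lower, where 8.38% of all genes were called. Astrocytes had 2 higher and 2 lower of 31 (5.02% of all genes), OPCs 1 higher of 33 (2.26%), oligodendrocytes 5 higher and 4 lower of 31 (23.3%) and microglia 1 higher and 2 lower of 19 (14.8%). Oligodendrocytes held the calls with the smallest p. In neurons the called genes included Slc1a3 (1.37, SE 0.24, edgeR adjusted p = 0.00137), a glutamate transporter of astrocytes that is also among the astrocyte markers counted above, and Cnih2 (1.11, SE 0.21, adjusted p = 0.00236), an AMPA receptor auxiliary protein. Slc12a2, a chloride importer, fell in microglia (-0.52, SE 0.1, adjusted p = 0.000894). Each of the 3 was lost without the 4 second-batch PBS libraries, at 0.42 for Slc1a3 and 0.73 for Cnih2 (adjusted p = 0.999 for each) and -0.17 for Slc12a2 (adjusted p = 0.81). The ribosomal RNA-like covariate also ended them, at 0.78 for Slc1a3 (adjusted p = 0.565), 0.78 for Cnih2 (0.56) and -0.27 for Slc12a2 (0.456). Slc1a3 and Cnih2 were not called in neurons of cluster 12 alone, and the lowest Slc1a3 value over the settings was -0.44.

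Gabrr2, the rho subunit gene of a GABA-gated chloride channel outside the member families, rose in oligodendrocytes. It had 80.4, 53.8 and 44.7 CPM in Cisplatin stim, 34.2, 41.2 and 25.4 in Cisplatin nonstim, 15.2, 13.1 and 12.1 in PBS stim and 11.2, 12.1 and 10.1 in PBS nonstim oligodendrocytes. All cisplatin libraries were above all PBS libraries. Its fold change was 1.89 (SE 0.15, edgeR adjusted p = 3.79e-08) and 2.06 without the 4 PBS libraries (adjusted p = 0.00112), and in Cisplatin nonstim against PBS nonstim it was 1.64 (SE 0.2, adjusted p = 0.000153). Dlg1, a scaffold protein gene, fell in oligodendrocytes (-0.55, SE 0.08, adjusted p = 4.85e-05; -0.58 without the 4 PBS libraries, adjusted p = 0.0463).

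Counts over the list in the other comparisons were smaller. Of the 156 pairs 6 were called in Cisplatin nonstim against PBS nonstim, 3 in each direction, and 11 in Cisplatin stim against PBS stim, 9 higher and 2 lower. In Cisplatin stim against Cisplatin nonstim 2 were called, among them Gabrr2 in oligodendrocytes (0.75, SE 0.17, edgeR adjusted p = 0.0394, lost without 7 single libraries, under limma-voom, with no batch term, in the second batch alone, without cells over 10% mitochondrial UMIs and without the 4 second-batch PBS libraries). In PBS stim against PBS nonstim edgeR, DESeq2 and limma-voom called none, with 6 at an unadjusted p under 0.05, and in the interaction edgeR called 1. The comparisons share their control libraries, so they are not independent of each other.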

How the data were processed

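The deposited files hold whole UMI counts per gene and cell from 10x 3′ v3.1 libraries, with the authors' cell types and clusters. The submitters' processing notes name Cell Ranger 5.0.0, Scanpy and the build mm10, without roles, and the aligner settings and annotation release are not given in the sources used here. For each library with at least 10 cells of a type, these counts were summed over its cells. They were tested with edgeR 4.0.16 in R 4.3.3 (quasi-likelihood, TMM scaling, filterByExpr with a minimum count of 10, 4 groups and the batch as terms, 12 libraries), fitted over all genes of a type. The Benjamini-Hochberg adjustment ran over all genes of a type in each comparison. The averaged comparison is the mean of the stimulated and unstimulated cisplatin effects. limma 3.58.1 (voom) and DESeq2 1.42.0 were alternatives, among other scalings, filters, batch terms and left-out libraries. The fit was tested on simulated data with known fold changes. No cell was removed beyond the authors' filters, although 4868 of 19834 cells exceed 10% mitochondrial UMIs, and doublets were not called again, the deposited cells carrying no doublet mark. P-values measure the spread between libraries of 1 to 2 mice.

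The text names every member called, the 2 members with the smallest p in each comparison and type, and at most 6 called partner genes per comparison. Gabrg1, Gabra4 and Gabrb1 in astrocytes, Grm5, Gria1, Gria2, Grin2a and Grin2b in neurons, Gria4 in OPCs and the further neuronal genes named with library totals lie outside this rule, having been picked with their values in view. Some genes of both lists that this rule would name are counted but not reported here. The members and lists were chosen with earlier results of these data known.

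Replicate numbers are shared by the groups in the labels. The deviations of same-numbered libraries from their group means correlated at 0.33, 0.214 and 0.187 between Cisplatin nonstim and PBS nonstim oligodendrocytes. Each exceeded 0.1, the limit used here, but replicate 1 is the first batch in every group. The batch difference alone can give such correlations, so they cannot show that the numbers pair these groups. The limit was also passed in microglia and within each treatment in oligodendrocytes. In neurons, astrocytes, OPCs and the stimulated oligodendrocytes at least 1 correlation between cisplatin and PBS was under 0.1. With the batch difference left out, in the second batch alone, correlations ran from -0.13 to 0.082.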

Additional observations from a re-analysis of the deposited data

How the results depend on the processing

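All 29 calls of members kept their sign in the 12 fits without 1 library each and in the other settings, 15 stayed called without each library in turn, and 3 were called in every setting (Grm3 in astrocytes in Cisplatin stim against PBS stim, and Gria4 in oligodendrocytes averaged and in Cisplatin stim against PBS stim). The 4 calls of Cisplatin nonstim against PBS nonstim became 1 with no batch term, 2 with the replicate block, 7 in the second batch alone, 2 without cells over 10% mitochondrial UMIs, 0 with the ribosomal RNA-like share as a covariate, 0 without the 4 second-batch PBS libraries, and 1 to 7 without 1 library. The 9 of Cisplatin stim against PBS stim became 5 with that covariate, 2 without those 4 libraries, 15 with library totals alone (all 9 among them) and 6 to 11 without 1 library. The 16 averaged calls became 9 with no batch term, 3 with the covariate, 1 without those libraries, 26 with library totals alone and 12 to 17 without 1 library. The 0 of Cisplatin stim against Cisplatin nonstim became 3 with no filter and 1 in the second batch alone, and the 0 of the interaction 1 with no filter. Leaving out the 4 libraries and library totals alone were added after the data were seen. The cause of these changes was not tested, apart from the fewer libraries of some settings. The replicate block gave 15 averaged calls and 8 in Cisplatin stim against PBS stim. It ended the calls of Grik2 and Grik1 in oligodendrocytes given above. In neurons it ended those of Gabra2 averaged (edgeR adjusted p = 0.0684) and Grik2 in Cisplatin stim against PBS stim (adjusted p = 0.071). It changed no other call.

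Direction turned only in uncalled results. Microglial Gria2 averaged was -0.45 in the second batch alone, -0.24 without cells over 10% mitochondrial UMIs and -0.2 to 0.29 without 1 library. Without 1 library it was -0.09 to 0.8 in Cisplatin nonstim against PBS nonstim (-0.1 in the second batch alone), -0.72 to 0.18 in Cisplatin stim against Cisplatin nonstim, -0.68 to 0.19 in Cisplatin stim against PBS stim and -0.11 to 0.75 in PBS stim against PBS nonstim. Microglial Gabbr1 was -0.19 to 0.06 in Cisplatin nonstim against PBS nonstim and -0.27 to 0.04 in the interaction. Without the 4 PBS libraries microglial Gria2 was 1.5 in Cisplatin stim against PBS stim, -0.56 in PBS stim against PBS nonstim and 0.33 in the interaction. Microglial Gabbr1 was then 0.16 in the interaction, astrocyte Grik5 -0.05 in PBS stim against PBS nonstim and neuronal Grin3a 0.05 in Cisplatin nonstim against PBS nonstim. Neurons could not be fitted without cells over 10% mitochondrial UMIs. Depth limits the low genes, since of 41 members the count filter left 27 in neurons and 2 in microglia.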
